A study of Mus musculus with 24 samples.

Results

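The enzymes that turn squalene into cholesterol were followed in mouse liver through 9 genes, Sqle, Lss, Cyp51, Tm7sf2, Msmo1, Nsdhl, Hsd17b7, Dhcr7 and Sc5d. They were taken by name. A member is a gene of one of these names with a probe set that has a single symbol in the platform annotation. The RefSeq symbol was used where the Entrez identifier was found there. All 9 were found among 19938 genes with a value. Each had 1 probe set of its own and none shared with another gene. The mice were wild-type C57Bl/6 males, liver RNA was hybridised to Affymetrix MoGene 1.0 ST arrays, and the values are log2 signals made by RMA. The 4 groups were germ-free mice fed menhaden fish oil, germ-free mice fed lard, conventional mice fed menhaden fish oil and conventional mice fed lard, with 6 arrays each. All mice ate a diet with 45% of its energy as fat for 11 weeks and were fasted for 4 hours before sampling. An age of 11 weeks is given for each mouse, which the design text gives as the age when feeding began, so the age of the livers at sampling is uncertain. The labels do not give the stock, litter, cage or housing of the mice, so bacterial status and stock cannot be told apart.

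Cholesterol is built in the endoplasmic reticulum from acetyl-CoA by way of mevalonate and squalene. Squalene is oxidised and folded into lanosterol, the first sterol, and the steps that follow strip methyl groups from the ring, move and add double bonds and reduce others until cholesterol remains. In liver the genes of the whole route are known targets of the transcription factor SREBP-2, which is released to the nucleus when sterols in the endoplasmic reticulum are low, and the pathway also varies with feeding and time of day.

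In the germ-free livers, 7 of the 9 genes were lower on fish oil than on lard, by 1.54-fold to 4.66-fold, and in the lard-fed livers 7 of the 9 were higher in germ-free than in conventional mice, by 1.56-fold to 7.06-fold. These comparisons share the lard-fed germ-free mice. In 2 of the 9 genes, Sqle and Msmo1, every mouse of that group lay above every lard-fed conventional mouse, as in 1.04% of all genes. In conventional mice the diets did not differ in any of the 9 by the test used, nor did germ-free and conventional mice on fish oil. Tm7sf2 passed in no comparison.

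**Figure D1:**
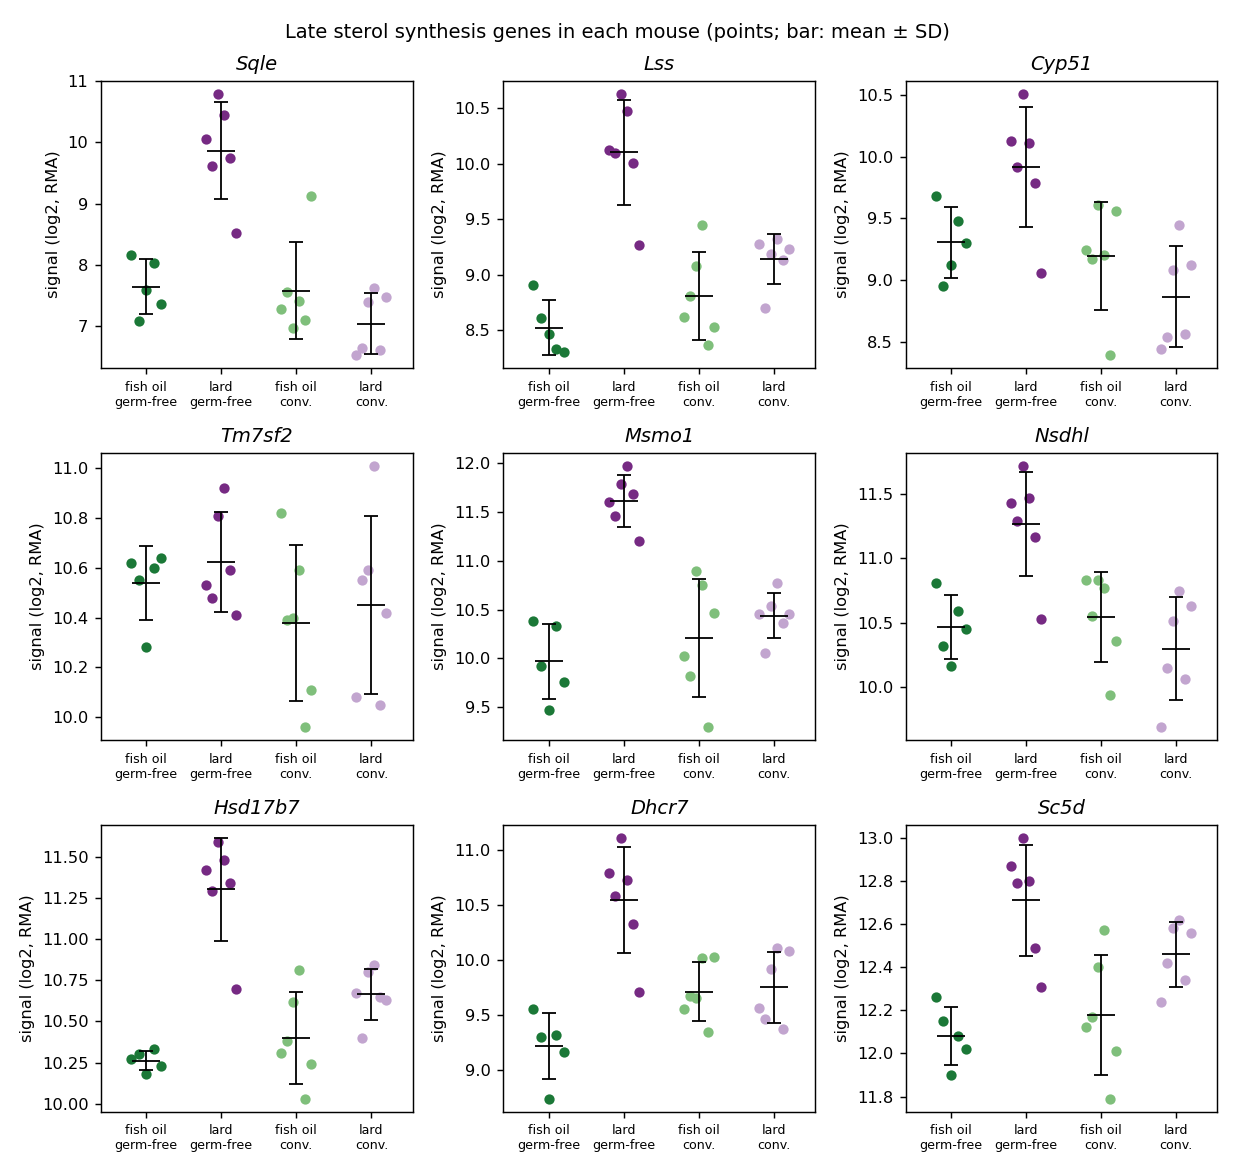
The signal (log2, RMA) of each gene in each mouse, by group; points are mice, the point for fish oil germ-free mice 3 and 4 is their mean, and bars are the group mean ± SD (n = 5, 6, 6 and 6). For Sqle all 6 lard-fed germ-free mice lie above the lard-fed conventional mice, their mouse 6 being lowest at 8.52, and for Tm7sf2 the 4 groups overlap.

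Alb, Ttr, Apoa1, Apob, Cyp2e1 and Tat, made by hepatocytes, lay between 12.96 and 14.31 in every sample, near the array maxima of 14.29 to 14.50, and none of these 6 genes passed in any comparison (limma; 1 was higher in germ-free mice on each diet at an unadjusted p under 0.05). Array medians lay between 6.44 and 6.62. Fish oil germ-free mice 3 and 4 were nearly alike: the SD of their difference over the 300 most variable genes was 0.123, against 0.349 for the second most similar of 60 pairs within groups. These 2 arrays were counted as 1 sample, so that group has n = 5. For the 9 genes the pair differed by at most 0.18, the Msmo1 and Tm7sf2 values being 9.38 and 9.56, and 10.37 and 10.19.

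The promoters of the genes are shown because 7 of the 9 passed for diet in germ-free mice and 7 for germ-free mice on lard. The sets differed: Sc5d passed only in the first comparison and Cyp51 only in the second. Tm7sf2 passed in neither. RefSeq sequences of build GRCm38.p6, from 250 bases before to 50 after the start site, matched 8 of the 9 genes. Sqle had no entry in the table used here. Motifs were searched on both strands: CCAAT, the core bound by NF-Y, GGGCGG, the core bound by Sp1, TCACNCCAC, a close form of the sterol element bound by SREBPs, and its looser form TCACNNCAC, which includes the stricter one. CCAAT was found in all 8 genes and in 37.4% of 32851 promoter windows, and GGGCGG in all 8 and in 35.7% of windows. TCACNCCAC was found in 0 of the 8 genes and in 1.24% of windows, and TCACNNCAC in 3 genes, Msmo1, Hsd17b7 and Dhcr7, and in 3.77% of windows. Dhcr7 has 3 windows, and its CCAAT and TCACNNCAC matches lie in different ones. Of the windows below, written 5′ to 3′ along the gene, Msmo1 and Hsd17b7 hold 3 CCAAT each and 1 TCACNNCAC, and Lss and Tm7sf2 hold 1 CCAAT and no TCACNNCAC. Capitals mark these 2 motifs on either strand (ATTGG is CCAAT read on the other strand), and in Msmo1 the middle CCAAT shares its last base with the TCACNNCAC match. Tm7sf2 and Lss hold the same numbers of each motif, including 2 GGGCGG, which is not capitalised.
Msmo1 (chr8:64733529-64733828, minus strand): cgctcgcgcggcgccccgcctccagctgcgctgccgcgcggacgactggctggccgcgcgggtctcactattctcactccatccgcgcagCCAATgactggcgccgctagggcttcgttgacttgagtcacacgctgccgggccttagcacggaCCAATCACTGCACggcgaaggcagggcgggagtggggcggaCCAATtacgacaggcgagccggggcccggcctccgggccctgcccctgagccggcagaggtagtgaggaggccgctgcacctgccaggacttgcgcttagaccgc
Lss (chr10:76531355-76531654, plus strand): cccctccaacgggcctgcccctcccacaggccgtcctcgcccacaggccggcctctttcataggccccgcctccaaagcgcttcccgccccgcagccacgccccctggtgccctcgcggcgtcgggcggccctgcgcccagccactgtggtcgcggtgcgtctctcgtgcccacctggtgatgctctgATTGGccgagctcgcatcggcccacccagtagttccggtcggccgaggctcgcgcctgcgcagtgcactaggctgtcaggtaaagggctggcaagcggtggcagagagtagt
Hsd17b7 (chr1:169969156-169969455, minus strand): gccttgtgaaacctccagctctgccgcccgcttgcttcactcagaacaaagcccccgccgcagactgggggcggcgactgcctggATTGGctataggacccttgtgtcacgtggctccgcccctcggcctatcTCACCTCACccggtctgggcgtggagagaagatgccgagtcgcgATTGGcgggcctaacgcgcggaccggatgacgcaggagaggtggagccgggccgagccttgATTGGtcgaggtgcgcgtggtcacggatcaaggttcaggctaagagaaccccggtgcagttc
Tm7sf2 (chr19:6067801-6068100, minus strand): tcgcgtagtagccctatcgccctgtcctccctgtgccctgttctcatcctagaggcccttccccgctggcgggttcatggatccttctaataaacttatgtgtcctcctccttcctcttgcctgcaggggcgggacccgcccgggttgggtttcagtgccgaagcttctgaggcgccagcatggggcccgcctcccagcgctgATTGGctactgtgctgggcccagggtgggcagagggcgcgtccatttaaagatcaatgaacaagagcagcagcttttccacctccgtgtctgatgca

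Diet was compared first in mice without microbes. Sqle encodes squalene epoxidase, which starts the oxygen-dependent part of the route. Its signal was 8.16, 7.09, 7.59, 8.03 and 7.37 in fish oil germ-free mice 1, 2, 3 with 4, 5 and 6, against a lowest, median and highest value of 8.52, 9.91 and 10.79 in lard germ-free mice. The groups did not overlap, and Sqle was 4.66-fold lower on fish oil (log2 difference -2.22 ± 0.35, SE; limma adjusted p = 0.000186). Lss, the lanosterol synthase gene, lay at 8.91, 8.61, 8.47, 8.33 and 8.30 on fish oil, against 9.27, 10.11 and 10.63 as the lowest, median and highest on lard. No Lss value on fish oil reached the lard range, and the difference was -1.58 ± 0.19, or 2.99-fold (limma adjusted p = 1.84e-05).

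Next come the enzymes that remove methyl groups from lanosterol. Cyp51, the gene of the P450 that takes off the first of them, had 9.68, 8.95, 9.12, 9.48 and 9.30 on fish oil, against a lowest, median and highest of 9.06, 10.01 and 10.51 on lard. Its groups overlapped because lard mouse 6, at 9.06, lay among the fish oil mice, and the difference of -0.61 ± 0.23 did not pass (limma adjusted p = 0.0771). Without that mouse, left out here for its low value, the Cyp51 difference was -0.78 and passed (limma adjusted p = 0.0128). Msmo1, the sterol methyl oxidase, Nsdhl, the decarboxylating dehydrogenase, and Hsd17b7, the keto-reductase, work one after the other in removing the remaining pair of methyl groups. Msmo1 had 10.38, 9.92, 9.47, 10.33 and 9.76 on fish oil, against 11.20, 11.64 and 11.97 as the lowest, median and highest on lard, a fall of 3.12-fold (-1.64 ± 0.22). Hsd17b7 lay within 10.18 to 10.33 in the 5 fish oil samples, with values of 10.27, 10.30, 10.18, 10.33 and 10.23, against 10.70, 11.38 and 11.59 on lard, a fall of 2.06-fold (-1.04 ± 0.13). Neither of these overlapped between diets. For Nsdhl, with 10.81, 10.32, 10.16, 10.59 and 10.45 on fish oil, against 10.53, 11.36 and 11.72 on lard, lard mouse 6 again overlapped the fish oil mice, and the fall was 1.75-fold (-0.80 ± 0.20, limma adjusted p = 0.00749). The limma adjusted p was 3.72e-05 for Msmo1 and 2.12e-05 for Hsd17b7.

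The enzymes that set the double bonds close the route. Dhcr7, which reduces the immediate precursor that is also the source of vitamin D, had 9.55, 9.30, 8.74, 9.32 and 9.16 on fish oil, against 9.71, 10.66 and 11.11 as the lowest, median and highest on lard. Sc5d, the desaturase one step before it, had 12.26, 12.15, 11.90, 12.08 and 12.02 on fish oil, against 12.31, 12.80 and 13.00 on lard. Both genes were lower in every fish oil sample, by 2.51-fold for Dhcr7 (-1.33 ± 0.19, limma adjusted p = 8.76e-05) and by 1.54-fold for Sc5d (-0.63 ± 0.12, limma adjusted p = 0.00134). Tm7sf2, one of the enzymes able to reduce the double bond left after the Cyp51 step, had 10.62, 10.55, 10.28, 10.60 and 10.64 on fish oil, against 10.41, 10.56 and 10.92 on lard. The ranges overlapped, and the 95% interval of the difference was -0.40 to 0.23.

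Counted over the 9 genes, 7 fell, 0 rose and 2 did not pass, where 8.59% of all genes tested were lower and 4.58% higher at an adjusted p under 0.05. The median difference of the 9 was -1.04, against 0.00 over all genes. In 6 of the 9 the diets did not overlap, a pattern that 7.33% of all genes showed in that direction and 4.64% in the other. Leaving out lard germ-free mouse 6, the number that did not overlap was 8, against 9.87% of all genes. That mouse was picked as the lowest of its group in the 9 genes, so the larger count follows from the choice. The clock index of each mouse (Dbp minus Arntl, a pair of genes that peak at opposite times of day) lay between -0.77 and 4.09 on fish oil (median 3.24) and 3.60 to 4.59 on lard (median 4.26) in germ-free mice. In conventional mice it lay between -2.04 and 3.66 on fish oil (median -0.75) and 1.96 to 4.33 on lard (median 2.44). The index thus also differed in the comparisons that follow. With that index as a covariate limma called the same 7 genes for diet in germ-free mice. Of 11 measured clock genes, 4 fell on fish oil in germ-free mice (Per2, Per3, Cry2 and Tef, by 1.35-fold to 2.52-fold) and 1 rose (Clock, 1.64-fold), these being named after their values were seen. The part of time of day in the results was not tested beyond this index.

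**Figure D2:**
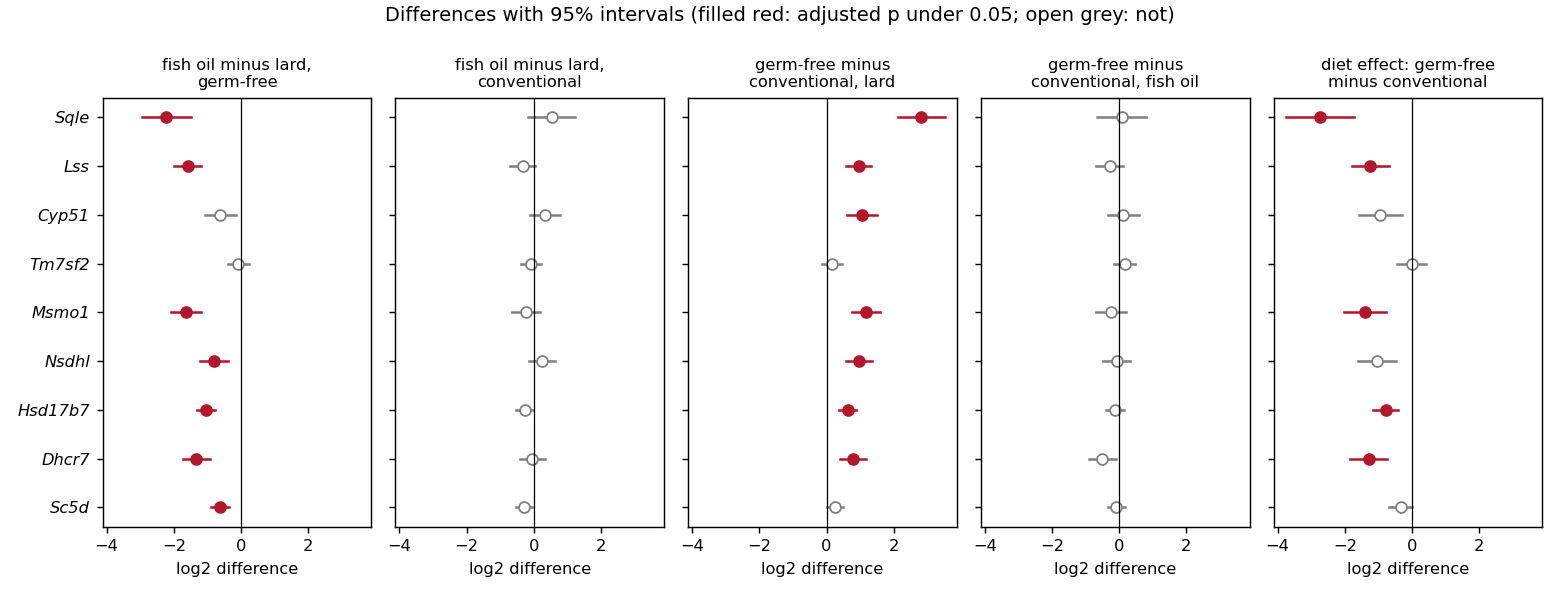
Log2 differences of the 9 genes in 4 comparisons and in the difference between the diet effects; points are limma estimates, lines their 95% intervals, and filled red points passed at an adjusted p under 0.05. Passing genes are on the lower side for diet in germ-free mice, with Sqle at -2.22, and on the higher side for germ-free mice on lard, with Sqle at 2.82.

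In conventional mice, fish oil and lard gave overlapping values for all 9 genes, where 0.522% of all genes lay higher and 0.476% lower without overlap. Sqle had a lowest, median and highest value of 6.98, 7.36 and 9.13 on fish oil, against 6.53, 7.02 and 7.62 on lard, and only fish oil mouse 6, at 9.13, lay above the lard range. The difference was 0.53 with a 95% interval of -0.16 to 1.23, and 0.22 without that mouse. Cyp51 (8.39, 9.22 and 9.61 on fish oil, against 8.44, 8.82 and 9.45 on lard) and Nsdhl (9.94, 10.66 and 10.83, against 9.69, 10.33 and 10.75) also had positive differences, of 0.33 and 0.25. The other 6 genes had differences between -0.33 for Lss and -0.04 for Dhcr7. Lss lay at 8.37, 8.71 and 9.45 on fish oil, against 8.70, 9.21 and 9.32 on lard, and Msmo1 at 9.30, 10.25 and 10.89 on fish oil, against 10.06, 10.45 and 10.77 on lard. For both the fish oil mice spread more widely and spanned the lard range. Hsd17b7 had 10.03, 10.35 and 10.81 on fish oil, against 10.40, 10.66 and 10.84 on lard, and Sc5d had 11.79, 12.15 and 12.57, against 12.24, 12.49 and 12.62. Tm7sf2 had 9.96, 10.40 and 10.82 on fish oil, against 10.05, 10.48 and 11.01 on lard. Limma called 0 of the 9, where 0.808% of all genes passed in either direction. At an unadjusted p under 0.05 it gave 2 lower, Hsd17b7 (-0.27, 95% interval -0.52 to -0.01) and Sc5d (-0.29, 95% interval -0.53 to -0.04). The median of the 9 differences was -0.07, against 0.01 over all genes. The intervals leave room for a diet effect in conventional mice of up to 0.72 downward for Lss and 1.23 upward for Sqle on the log2 scale.

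On lard, livers of germ-free mice were compared with those of conventional mice. Every germ-free mouse had more Sqle signal than any conventional mouse, with 8.52, 9.91 and 10.79 as the lowest, median and highest in germ-free mice, against 6.53, 7.02 and 7.62 in conventional mice. The difference was 2.82 ± 0.34, or 7.06-fold (limma adjusted p = 3.25e-05). Msmo1 was the only other gene of the 9 whose groups did not overlap, at 11.20, 11.64 and 11.97 in germ-free mice, against 10.06, 10.45 and 10.77 in conventional mice, a rise of 2.26-fold (1.17 ± 0.21, limma adjusted p = 0.00286).

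In Lss, Cyp51, Nsdhl, Hsd17b7 and Dhcr7, 5 of 6 germ-free mice lay above the highest conventional mouse, and the remaining one was mouse 6. Cyp51 lay at 9.06, 10.01 and 10.51 in germ-free mice, against 8.44, 8.82 and 9.45 in conventional mice, and rose 2.08-fold (1.06 ± 0.22). Nsdhl, at 10.53, 11.36 and 11.72, against 9.69, 10.33 and 10.75, rose 1.96-fold (0.97 ± 0.19). Lss, at 9.27, 10.11 and 10.63, against 8.70, 9.21 and 9.32, rose 1.95-fold (0.96 ± 0.19). These are log2 signals, lowest, median and highest, with germ-free mice given before conventional mice, and the limma adjusted p-values were 0.00906 for Cyp51, 0.00612 for Nsdhl and 0.00603 for Lss.

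Hsd17b7 had 10.70, 11.38 and 11.59 in germ-free mice, against 10.40, 10.66 and 10.84 in conventional mice, and rose 1.56-fold (0.64 ± 0.12, limma adjusted p = 0.00612). Dhcr7 had 9.71, 10.66 and 11.11 in germ-free mice, against 9.37, 9.74 and 10.11 in conventional mice, and rose 1.73-fold (0.79 ± 0.19, limma adjusted p = 0.0244). The Dhcr7 call was lost without germ-free mouse 1, 3 or 4 or without conventional mouse 2, and its adjusted p ran from 0.00161 to 0.0786 over 36 other settings. Sc5d, at 12.31, 12.80 and 13.00 in germ-free mice, against 12.24, 12.49 and 12.62 in conventional mice, differed by 0.25 (95% interval 0.00 to 0.49), and Tm7sf2, at 10.41, 10.56 and 10.92, against 10.05, 10.48 and 11.01, by 0.17 (95% interval -0.13 to 0.47). Neither passed.

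Of the 9 genes, 7 rose, 0 fell and 2 did not pass, where 1.13% of all genes were higher and 0.687% lower at an adjusted p under 0.05. The median of the 9 differences was 0.96, against -0.01 over all genes. Groups did not overlap in 2 of the 9, against 1.04% of all genes in that direction. Without germ-free mouse 6 they did not overlap in 7 of the 9, against 1.96%. That mouse was picked as the lowest of its group in the 9 genes, so the larger count follows from the choice. The same 7 genes were called without germ-free mice 5 and 6 and with the clock index as a covariate. Of the 11 clock genes, Per2 rose in germ-free mice on lard (1.94-fold) and Clock (1.43-fold) and Nr1d1 (1.75-fold) fell.

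On fish oil, germ-free and conventional mice had overlapping values for all 9 genes, where 1.39% of all genes lay higher and 2.41% lower without overlap. Limma called 0 of them, where 6.91% of all genes passed in either direction, and at an unadjusted p under 0.05 it gave 1, Dhcr7. Dhcr7 had 9.55, 9.30, 8.74, 9.32 and 9.16 in germ-free mice, against 9.35, 9.66 and 10.03 as the lowest, median and highest in conventional mice, with 4 of the 5 germ-free values below every conventional one (-0.50, 95% interval -0.90 to -0.10, limma adjusted p = 0.132). With mice 3 and 4 counted separately Dhcr7 passed (limma adjusted p = 0.0499). Sqle differed by 0.07 with a 95% interval of -0.66 to 0.80. The other 7 genes had differences between -0.29 for Lss and 0.16 for Tm7sf2, and the median of the 9 was -0.09, against -0.03 over all genes.

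Whether the diet effect itself differed between germ-free and conventional mice was tested as the difference of the 2 effects. Sqle had diet effects of -2.22 in germ-free mice and 0.53 in conventional mice, a difference of -2.75 ± 0.49 (limma adjusted p = 0.0117). Msmo1 had -1.64 in germ-free mice and -0.23 in conventional mice (difference -1.41 ± 0.30), Dhcr7 -1.33 and -0.04 in the same order (-1.29 ± 0.27), Lss -1.58 and -0.33 (-1.25 ± 0.27) and Hsd17b7 -1.04 and -0.27 (-0.78 ± 0.18). These 4 passed with limma adjusted p-values of 0.0363, 0.0326, 0.0371 and 0.0490. Thus 5 of the 9 genes passed, all with a more negative diet effect in germ-free mice, where 0.391% of all genes passed in that direction. Nsdhl (-1.05 ± 0.27, limma adjusted p = 0.0719) and Cyp51 (-0.94 ± 0.31, limma adjusted p = 0.174) did not pass, nor did Sc5d (-0.34 ± 0.17) or Tm7sf2 (-0.01 ± 0.21). In the same test 4 of 7 stellate cell markers passed in the same direction, Col1a1, Col1a2, Col3a1 and Pdgfrb (-0.82 to -0.61, limma adjusted p = 0.0161 to 0.0284), and 1 of 5 cholangiocyte markers, Krt19 (-0.50, limma adjusted p = 0.0383), named after their values were seen. Their part in the result was not tested.

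The Sqle call held under all 35 other settings of this test, with adjusted p-values of 0.00215 to 0.0356. The other 4 calls were lost under some settings. With all mice kept, Hsd17b7 was not called with equal array medians, nor Msmo1 with a trended and robust variance. Sqle alone was called without fish oil germ-free mice 3 and 4 or mouse 6, lard germ-free mouse 1, 2, 3 or 4, fish oil conventional mouse 4, or lard conventional mouse 1 or 2. It was called with 1 other gene without fish oil germ-free mouse 2 or 5, and with 2 others without fish oil conventional mouse 3, lard germ-free mouse 5, or lard conventional mouse 3 or 4. Nsdhl was called in 6 of the 35 settings. With all mice kept, these were array weights and 24 arrays as separate samples. Nsdhl was also called without fish oil conventional mouse 5, alone or with mouse 6, and without lard germ-free mouse 6. The remaining setting left out germ-free mice 5 and 6 of both diets, where Msmo1 was not called. The differences themselves stayed between -1.59 and -1.27 for Msmo1, -1.57 and -1.17 for Dhcr7, -1.43 and -1.12 for Lss and -0.93 and -0.69 for Hsd17b7 over the 35 settings.

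Some mice deviated from their group mean in the same direction in most of the 9 genes. Others did not, such as fish oil germ-free mouse 2, which lay below its group mean in 4 of 9. Lard germ-free mouse 6 was the lowest of its group in 9 of 9 genes, by a median of 0.73 below the group mean, and its Sqle signal lay 1.34 below it. Lard conventional mouse 4 was the highest of its group in 9 of 9. Fish oil conventional mouse 5 was the lowest in 8 of 9, and in the remaining gene, Sqle, mouse 3 was lower at 6.98, against 7.10 in mouse 5. Fish oil conventional mouse 6 had the highest Sqle signal of its group, 1.55 above the group mean, while 5 of its 9 genes lay below their group means. Fish oil germ-free mouse 1 was the highest of its group in 7 of 9 genes.

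**Figure D3:**
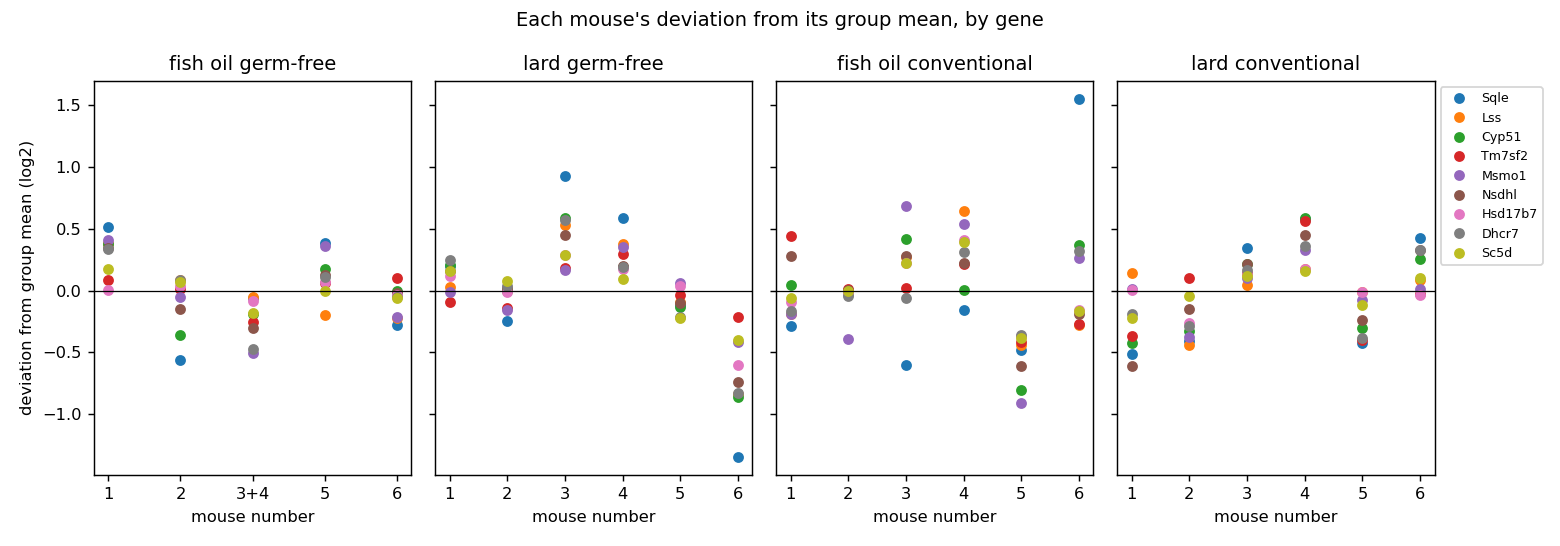
Deviation of each mouse's log2 signal from its group mean, by gene (colours) and group (panels); the point labelled 3+4 is the mean of fish oil germ-free mice 3 and 4. All 9 points of lard germ-free mouse 6 lie below 0 and all 9 of lard conventional mouse 4 above it, while Sqle in fish oil conventional mouse 6 stands 1.55 above its group mean and 5 of that mouse's 9 genes lie below 0.

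The spread also differed among genes. Hsd17b7 had an SD of 0.06 in fish oil germ-free mice, against 0.31 in lard germ-free mice, while Sqle had SDs of 0.45 and 0.79 in these groups, 0.79 in fish oil conventional mice and 0.50 in lard conventional mice. After each gene was centred on its mean over the 23 samples, the pair of members with the most similar values was Cyp51 and Nsdhl, with a root mean square difference of 0.197, followed by Hsd17b7 and Sc5d (0.207). The least similar pair was Sqle and Tm7sf2 (1.18). Outside the 9, the 8 genes closest to the members' mean centred values were Mvd (0.204), Hmgcs1 (0.214), Pmvk (0.244), Frzb (0.270), Fam126a (0.281), ccdc198 (0.285), Mmp2 (0.288) and Bicc1 (0.288), among 18610 genes compared over 23 samples. A flat gene would stand at 0.527. Of the 9 members themselves, Sqle stood at 0.807, farther than a flat gene, and Tm7sf2 at 0.445. The other members ran from 0.198 for Nsdhl to 0.306 for Sc5d. The signal of ccdc198, with group means of 4.78 to 5.64, was close to the arrays' 25th percentile, 4.98 to 5.20.

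Genes of the steps before squalene were read beside the 9. Of 7 measured genes of the mevalonate pathway, 7 fell on fish oil in germ-free mice, with a median of -0.91. Among them were Fdps, the farnesyl diphosphate synthase gene (2.93-fold, -1.55 ± 0.23), Mvd, the mevalonate diphosphate decarboxylase gene (2.41-fold, -1.27 ± 0.20), Pmvk, the phosphomevalonate kinase gene (2.46-fold), and Mvk, the mevalonate kinase gene (1.46-fold), with limma adjusted p-values of 9.87e-05 to 0.00062. On lard 4 of the 7 rose in germ-free mice, Idi1, the isopentenyl diphosphate isomerase gene (2.53-fold), Pmvk (2.09-fold), Mvd (2.06-fold) and Mvk (1.34-fold), and 3 did not pass. In the other comparisons of the groups 0 of the 7 passed in limma, with 0 at an unadjusted p under 0.05 for diet in conventional mice and 2 lower for germ-free mice on fish oil. The diet effect differed between germ-free and conventional mice in 1 of the 7, Mvk (-0.63 ± 0.14, limma adjusted p = 0.0380), a call lost in 16 of 35 settings, with equal array medians or with any 1 of 15 samples left out. On lard the Mvk call was lost without germ-free mouse 4.

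**Figure D4:**
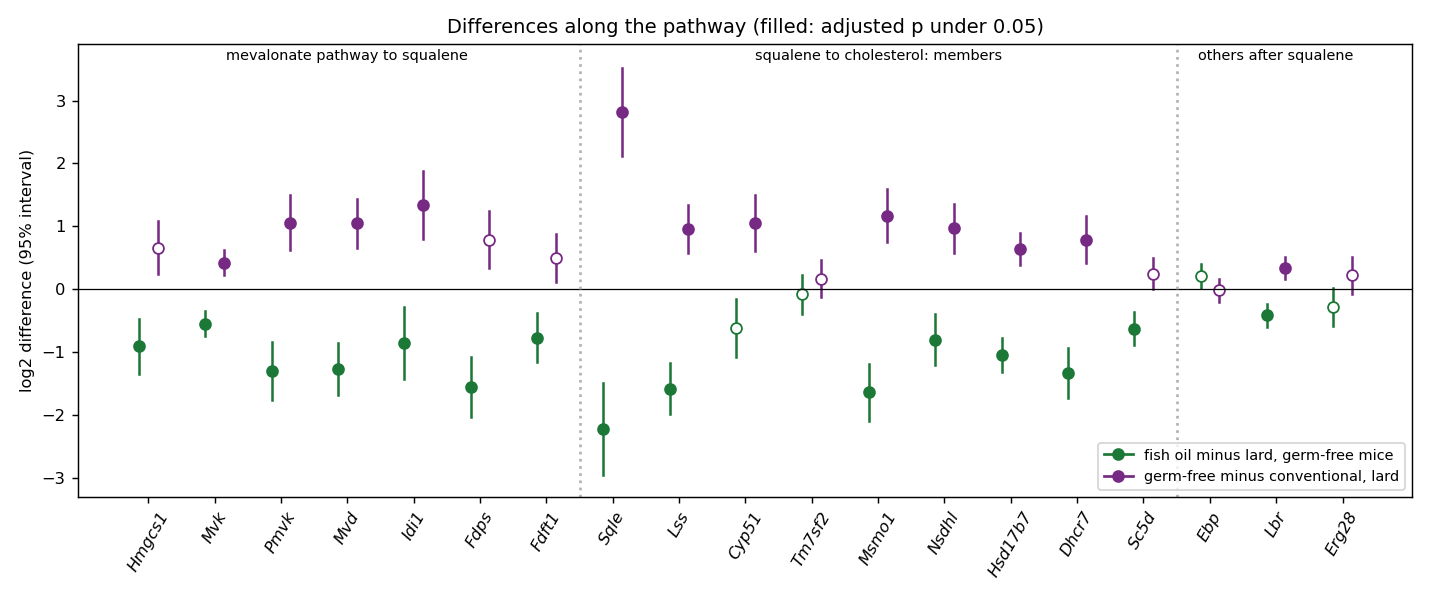
Log2 differences along the route for 7 genes before squalene, the 9 members and 3 other enzymes after squalene; green shows fish oil minus lard in germ-free mice, purple germ-free minus conventional mice on lard, lines are 95% intervals and filled points passed at an adjusted p under 0.05. Both comparisons use the lard germ-free mice. Sqle lies farthest from 0 in both, at -2.22 and 2.82, and Tm7sf2 lies at -0.08 and 0.17.

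Of the other enzymes after squalene, 3 had a value. Lbr, the lamin B receptor gene, whose product reduces the same double bond as that of Tm7sf2, was 1.33-fold lower on fish oil in germ-free mice (-0.41 ± 0.09, limma adjusted p = 0.00322) and 1.27-fold higher in germ-free mice on lard (0.34 ± 0.09, limma adjusted p = 0.0402). The second call was lost in 10 of 36 settings, among them with the clock index and without germ-free mouse 1, 3, 4 or 5 or conventional mouse 2, 3 or 4. Ebp, the sterol isomerase gene, differed by 0.21 ± 0.09 and Erg28, a scaffold of the complex that removes methyl groups, by -0.29 ± 0.15 between diets in germ-free mice, and neither passed.

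Among 10 measured genes of SREBP control, sterol uptake and trafficking, 4 fell on fish oil in germ-free mice and 6 did not pass. They were Insig1, which holds the SREBP complex in the endoplasmic reticulum and is itself an SREBP target (2.75-fold), Tmem97, a sterol-regulated membrane protein gene (1.83-fold), Npc2, a lysosomal sterol carrier gene (1.23-fold), and Srebf2, the SREBP-2 gene (1.26-fold). Insig1 also fell on fish oil in conventional mice, by 1.88-fold (-0.91 ± 0.20, limma adjusted p = 0.0386). That call was lost in 12 of 36 other settings, with limma adjusted p-values up to 0.269: with the clock index, with only the groups compared, with a trended and robust variance, and without fish oil conventional mouse 2, 5 or 6, mice 5 and 6 together, or lard conventional mouse 1, 3, 4, 5 or 6. The Srebf2 call was lost in 9 of 36 settings, among them without fish oil germ-free mouse 2, 3 with 4, or 6, or lard germ-free mouse 2, 3 or 4. On lard, Tmem97 rose in germ-free mice (1.47-fold; lost without germ-free mouse 1 or 4 or conventional mouse 2), and on fish oil Stard4, a sterol transfer protein gene, rose (1.67-fold) and Insig2 fell (1.50-fold). Stard4 was lost in 7 of 36 settings, among them without germ-free mouse 1 or 3 with 4 or conventional mouse 5 or 6, and Insig2 in 4, among them without germ-free mouse 1, 2, or 3 with 4. Both were lost with the clock index. Of 10 genes of sterol disposal, Cyp7b1, an oxysterol hydroxylase gene, rose on fish oil in germ-free mice (2.82-fold) and fell in germ-free mice on lard (1.96-fold; lost in 10 of 36 settings, among them with the clock index and without mouse 1, 2, 3 or 4 of either group). Cyp7a1, whose enzyme limits the rate at which bile acids are made, rose 7.78-fold in germ-free mice on fish oil (2.96 ± 0.40, limma adjusted p = 7.21e-05), and Abcg1, a sterol exporter gene, fell there (1.41-fold). Diet effects differed between germ-free and conventional mice in 0 of the 10 genes of either list by limma, with 2 and 2 at an unadjusted p under 0.05.

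Markers of other liver cells moved in the same comparisons. In whole liver, fewer cells of a type and less RNA per cell cannot be told apart. Of 7 stellate cell markers, 7 fell on fish oil in germ-free mice, with list means between 8.48 and 8.60 on fish oil and between 9.10 and 9.36 on lard, and 3 rose in germ-free mice on lard, with 9.10 to 9.36 in germ-free mice, against 8.66 to 9.09 in conventional mice. Of 5 cholangiocyte markers, 3 fell in the first comparison (6.67 to 6.82 on fish oil and 6.98 to 7.12 on lard) and 1 rose in the second (6.98 to 7.12 in germ-free mice, against 6.68 to 6.84 in conventional mice). Of 8 Kupffer cell markers, 1 rose on fish oil in germ-free mice (8.63 to 9.09 on fish oil and 8.29 to 9.20 on lard) and 3 fell in germ-free mice on lard (8.29 to 9.20, against 9.14 to 9.59 in conventional mice). Of 6 endothelial markers, 2 fell in the first comparison and 0 in the second (1 lower at an unadjusted p under 0.05), and of 6 neutrophil markers limma called 0 in either, with 0 at an unadjusted p under 0.05. The part of these cells in the results was not tested. Hepatocyte list means lay between 13.71 and 13.85 in all groups.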

How the data were processed

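Liver RNA of 24 mice was hybridised to 24 arrays, from 250 ng of total RNA each, per the labels' protocols. The deposited values are log2 signals that the authors made by RMA, per the submitters' processing notes and the file headers, with Expression Console (apt engine 1.1.2800.28061, library r4), background correction, quantile normalization and median polish over all arrays. This hides a change shared by most genes. The 2 deposited log2 tables differ by at most 0.005. Of 35556 probe sets, 21789 had 1 symbol, 1621 several and 12146 none listed. For 21698 of those with 1 symbol the Entrez identifier was found in RefSeq, and the RefSeq symbol was used. The highest-mean probe set stood for each of 19938 genes, with no level filter. Arrays have no depth of reads. Precision depends on how many mice each group has and on each gene's spread between mice.

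Limma 3.58.1 in R 4.3.3 (lmFit, eBayes) was fitted to 4 group means over 23 samples. Two-sided p-values were adjusted by Benjamini-Hochberg over all genes in each comparison, with a threshold of 0.05. Values after ± are standard errors of log2 differences unless given as SD. Each p-value sets a difference against the spread between mice, pooled over the 4 groups and moderated by eBayes. On data simulated for the germ-free diet comparison over 19938 genes, 76.1% of changes of 0.5, 100% of 1 and 100% of 2 (log2) were called, with 14 false calls. The simulated noise was independent, with the same spread in all groups for a gene, and 67, 67 and 66 genes were changed. In the livers some mice deviated in many genes together and spreads differed between groups, so these figures may not hold for them. The members, lists and alternatives were chosen with earlier results of these data known. Genes named beyond the members were those of lists of at most 5, at most 4 called genes per list and comparison, lowest p first, the 8 genes most like the members, and the clock pair. Listed genes without a value, and genome coordinates other than promoters, are not reported here. The labels do not say that mouse numbers pair mice across groups, and none were paired in the fit. Deviations of same-numbered mice correlated at 0.03 on average over 36 pairs (different numbers -0.01). The correlation was above 0.1 in 14 of 36 same-numbered pairs and in 46 of 180 others. Such a mean cannot show whether some numbers share a pairing.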

Additional observations from a re-analysis of the deposited data

Results flagged for a closer look

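The same mice recur over the 9 genes, so the sets of values are not independent and their count is no test. Within groups, 5 of 36 sets of values (9 genes in 4 groups) held a mouse far from the others, where chance gives about 5%. They were Sqle in fish oil conventional mouse 6 (9.13, against 6.98 to 7.56 in the others), Lss in lard conventional mouse 2 (8.70), Cyp51 in fish oil conventional mouse 5 (8.39), Tm7sf2 in fish oil germ-free mice 3 and 4 (10.28, their mean) and Hsd17b7 in lard germ-free mouse 6 (10.70).

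The diet effect on log2 signal differed between germ-free and conventional mice, by limma's test of that difference, for Sqle (-2.75), Msmo1 (-1.41), Dhcr7 (-1.29), Lss (-1.25), Hsd17b7 (-0.78) and, among the genes before squalene, Mvk (-0.63). All are germ-free minus conventional.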

How the results depend on the processing

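Over 36 other settings for each comparison of groups, limma called 7 to 8 of the 9 genes for diet in germ-free mice, 0 for diet in conventional mice and 6 to 7 for germ-free mice on lard. For germ-free mice on fish oil it called 0, except 1 (Dhcr7) with 24 arrays as separate samples. The test of the difference between diet effects called 4 to 6 over its 12 settings that keep all mice or drop several, and 1 to 6 with each sample left out in turn, against 5. With the replicate block (mouse number) and 24 arrays, the counts were 8, 0, 7, 0 and 5 in this order. Calls over all genes ran from 1432 to 3914 (diet, germ-free; 2625 as reported), 0 to 743 (diet, conventional; 161), 163 to 1084 (germ-free on lard; 363), 581 to 2075 (germ-free on fish oil; 1377) and 24 to 457 (difference of diet effects; 121).

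No called difference changed sign in these settings. Among those not called, the diet difference in conventional mice turned to 0.103 for Tm7sf2 without fish oil conventional mice 5 and 6 and to 0.027 for Dhcr7 after a second quantile normalization. The germ-free difference on fish oil turned to -0.014 for Tm7sf2 without fish oil conventional mice 5 and 6. The difference of diet effects for Tm7sf2 turned to 0.009 with the clock index and 0.071 with equal array medians. Leaving out 1 sample, the diet difference in conventional mice ran from -0.11 to 0.035 for Dhcr7 and from -0.16 to 0.042 for Tm7sf2, the germ-free difference on fish oil from -0.047 to 0.20 for Cyp51 and from -0.063 to 0.38 for Sqle, and the difference of diet effects for Tm7sf2 from -0.13 to 0.075. The causes were not tested. Background correction could not be varied from RMA values.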
